A study of Homo sapiens with 7 samples.

Results

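Anchors of RAD21 loops that lay away from loop anchors of CTCF and of ZNF143 were examined in wild-type HEC-1-B cells. An anchor is a DNA region at either end of a chromatin loop. Overlapping anchors of the wild-type RAD21 loop list were merged, and an anchor was kept when it lay more than 5 kb from every anchor of the wild-type CTCF list and of the wild-type ZNF143 list. The rule kept 3693 of 15742 RAD21 anchors, or 23.5% (95% Wilson interval 22.8 to 24.1), which are called distant anchors here. The share depended on the count minimum of the lists, at 41.3% when excluding loops needed 3 counts and 13.1% when RAD21 loops did. The other RAD21 anchors fell into 3 classes, with 6612 near a CTCF anchor only, 4772 near both a CTCF and a ZNF143 anchor, and 665 near a ZNF143 anchor only. The rule rests on loop lists and not on binding profiles. A distant anchor is therefore one without a listed CTCF or ZNF143 loop, which is not the same as a site without CTCF or ZNF143 protein.

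RAD21 is a subunit of cohesin, the ring-shaped complex that extrudes DNA into loops. CTCF is a zinc-finger protein that binds DNA in a set orientation and halts cohesin, so that many cohesin loops end at CTCF sites. ZNF143 is another zinc-finger protein, known for binding near the promoters of genes. Cohesin is also loaded and held at enhancers and promoters that lack CTCF, and loops that end there are often weaker than loops between CTCF sites.

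HEC-1-B is an established human uterine adenocarcinoma cell line. Loops were measured by HiChIP, which ligates DNA ends lying close together in fixed nuclei, enriches the ligated fragments with an antibody and reads both ends. The 7 libraries came from unmodified cells (genotype wild type) with the ZNF143, CTCF and RAD21 antibodies, from ZNF143KO cells with the CTCF and RAD21 antibodies, and from CTCF-AID cells with the ZNF143 antibody. CTCF-AID cells carry CTCF with a degron tag and express TiR1, and the label gives auxin (IAA) for 0 h or 24 h, at 500 μM per the treatment protocol. Whether the ZNF143KO and CTCF-AID lines were each 1 clone is not given in the sources used here. Each group had 1 library, so no test across replicates was possible and every difference lacks a replicate check.

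The unit throughout is the deposited count of a loop, a whole number of 2 or more that was not scaled to a common depth. Totals over the listed loops were 74410 for wild-type RAD21 (16788 loops), 33460 for ZNF143KO RAD21 (10804 loops) and between 46220 and 143119 for the other lists. The depth of the libraries is not given. The filters behind the lists are not given either, so a loop missing from a list was not shown to be absent from the cells. Intervals cover counting error in these libraries only, and they are too narrow where neighbouring anchors share a loop.

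Distant anchors were thinly supported. The summed count of an anchor is the total over its RAD21 loops. Its median was 2 at distant anchors (quartiles 2 to 4, highest 82) and 2 at anchors near ZNF143 only, against 5 near CTCF only and 8 near both proteins. The means were 3.59, 4.07, 8.52 and 16.0 in the same order. A summed count of 2, the least a list can hold, was found at 57.7% of distant anchors (56.1 to 59.3), 53.2% of anchors near ZNF143 only (49.4 to 57.0), 24.4% of anchors near CTCF only (23.3 to 25.4) and 15.8% of those near both (14.8 to 16.9). Sums of 10 or more occurred at 163 distant anchors, or 4.41% (3.80 to 5.12), and at 5.11% (3.68 to 7.06) of anchors near ZNF143 only, against 25.1% (24.1 to 26.2) and 44.3% (42.9 to 45.7) of the classes near CTCF. Read the other way, distant anchors made up 43.9% of all RAD21 anchors with a sum of 2 and 4.11% of those with 10 or more.

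**Figure D1:**
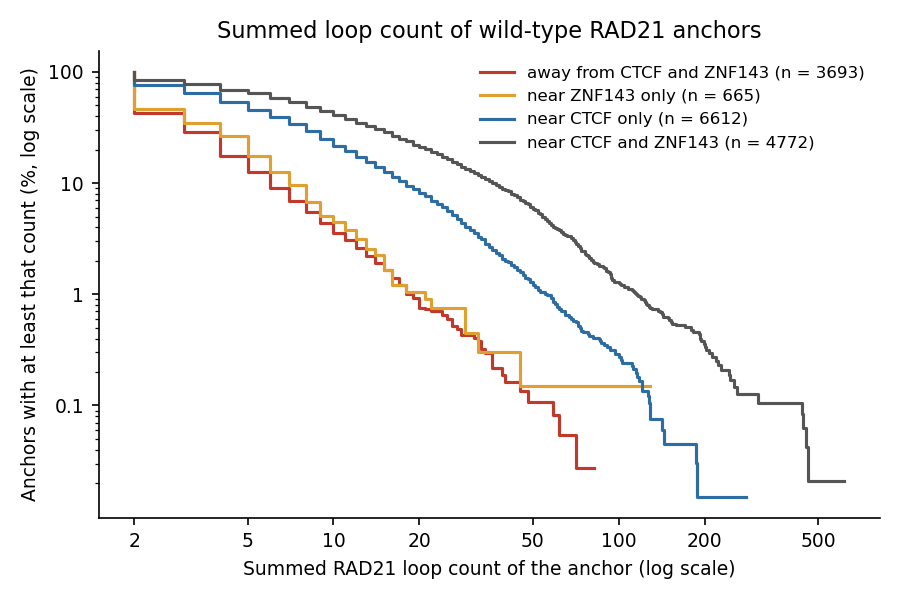
The share of wild-type RAD21 anchors (y axis, percent, log scale) that reach at least a given summed RAD21 loop count (x axis, log scale), with 1 line per class of anchor. The line of distant anchors ends at a summed count of 82 and runs close to that of anchors near ZNF143 only, below both classes near CTCF.

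Most distant anchors also had a single loop. A single RAD21 loop was listed for 2917 of them (79.0%, 77.6 to 80.3), 550 had 2 loops, 139 had 3 and 87 had 4 or more, up to 8. Anchors near ZNF143 only were closest to this, with a single loop at 73.5% (70.1 to 76.7). In contrast, 49.8% of anchors near CTCF only (48.6 to 51.0) and 33.2% of those near both (31.8 to 34.5) had a single loop. Anchor width did not set the distant class apart, with medians of 1801 bp for distant anchors (quartiles 1480 to 2267), 1846 bp near CTCF only and 1834 bp near both.

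The share of distant anchors differed between chromosomes. It was lowest on chromosome 19, with 68 of 721 RAD21 anchors (9.43%, 7.51 to 11.8), followed by chromosome 17 (15.4%, 13.1 to 18.0) and chromosome 16 (15.5%, 12.6 to 19.0). The highest shares were on the X chromosome, with 138 of 345 (95% Wilson interval 35.0 to 45.3%), and on chromosomes 4 (35.6%, 31.0 to 40.5), 18 (34.2%, 28.8 to 39.9) and 13 (34.1%, 29.3 to 39.2). The last 4 intervals overlapped, so their order is not resolved. The lists that define the class also differed between chromosomes. Chromosome 19 held 1173 ZNF143 anchors, more than its 721 RAD21 anchors, and 1.17 CTCF anchors per RAD21 anchor, whereas the X chromosome held 78 ZNF143 anchors and 0.890 CTCF anchors per RAD21 anchor. CTCF anchors per RAD21 anchor were 0.881 on chromosome 18, 0.997 on chromosome 13 and 1.04 on chromosome 4. They were 1.13 on chromosome 17 and 1.27 on chromosome 16. Chromosome 2, with 28.8% distant anchors, had 1.00. The part of these densities in the shares was not tested.

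**Figure D2:**
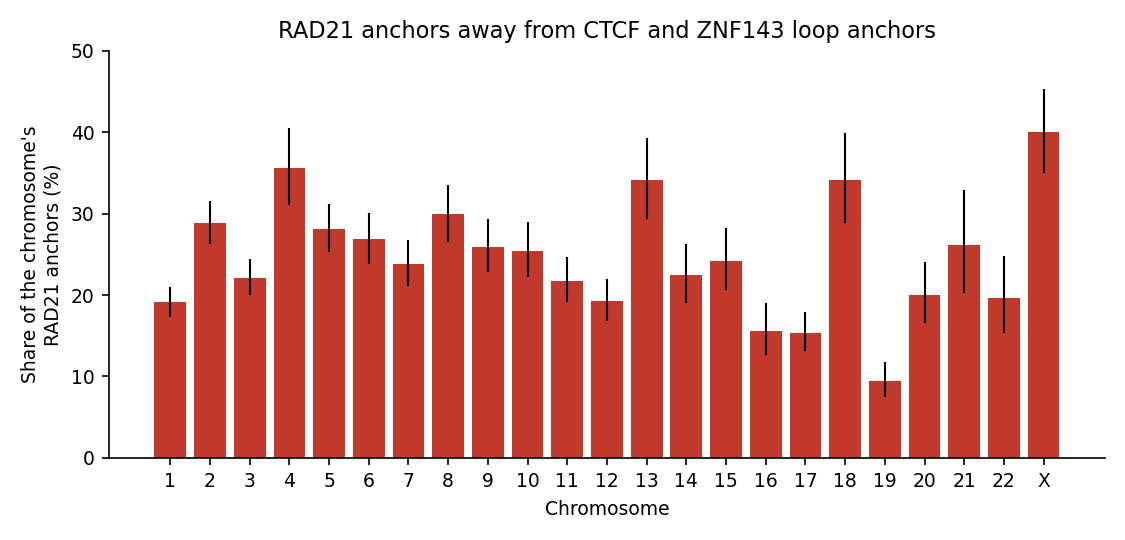
Distant anchors as a share of all wild-type RAD21 anchors of a chromosome (bars, percent) with 95% Wilson intervals (lines). Chromosome 19 is lowest at 9.43% and the X chromosome, with 138 of 345 anchors, is highest.

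Distant anchors were mostly far from the excluded anchors. Their gap to the nearest CTCF or ZNF143 loop anchor had a median of 47.0 kb, with quartiles of 18.4 and 131.3 kb and a highest value of 4271 kb. The nearest CTCF anchor lay at a median of 56.3 kb and the nearest ZNF143 anchor at 228.9 kb. Counts fell off only at the largest distances, with a mean summed count between 3.80 and 3.93 in each class up to 100 kb and of 3.04 among the 1155 anchors beyond 100 kb. At the threshold of the rule, the 103 distant anchors with gaps of 5 to 6 kb had a mean summed count of 3.70. The 97 anchors just outside it, with gaps of 4 to 5 kb, had a mean of 4.06.

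Distant anchors took part in 4187 of the RAD21 loops, with a total count of 11622.  Of these loops, 2091 (49.9%, 48.4 to 51.5) led to an anchor near CTCF only and 1285 (30.7%, 29.3 to 32.1) to an anchor near both proteins. A further 656 (15.7%, 14.6 to 16.8) joined 2 distant anchors, and 155 (3.70%, 3.17 to 4.32) led to an anchor near ZNF143 only. The share within the class was 28.0% when excluding loops needed 3 counts. To compare classes of anchors, partners were also counted per loop end, so that a loop within a class counts at both its ends. Of the 4843 ends at distant anchors, 27.1% (25.9 to 28.4) met another distant anchor. This was the case for 16.4% (14.2 to 18.9) of ends near ZNF143 only, 15.3% (14.7 to 16.0) near CTCF only and 9.08% (8.61 to 9.56) near both. A partner near CTCF was met by 69.7% (68.4 to 71.0) of ends at distant anchors, against 74.5% (71.6 to 77.1), 83.4% (82.8 to 84.0) and 87.1% (86.6 to 87.7) in the other classes in the same order. Ends at distant anchors thus met distant anchors more often, and anchors near CTCF less often, than the ends of each other class did. Per anchor, 2722 distant anchors (73.7%, 72.3 to 75.1) had at least 1 partner near CTCF, and 867 (23.5%, 22.1 to 24.9) were joined to distant anchors alone.

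The partner class moved with the strength of the loop. Among loops of distant anchors with a count of 2, 17.5% (16.1 to 18.9) joined 2 distant anchors and 28.8% (27.1 to 30.5) led to an anchor near both CTCF and ZNF143. Among the 60 loops with a count of 10 or more, these shares were 6.67% (2.62 to 15.9) and 46.7% (34.6 to 59.1). The intervals of the 2 count classes did not overlap for either kind of partner. Of these 60 loops, 53 led to an anchor near CTCF. The ends of all RAD21 loops moved the same way with count. Counted per end, the share at distant anchors was 20.3% at a count of 2 and 2.56% at 10 or more, and the share near both proteins was 36.5% and 60.8%.

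Where a distant anchor was joined to an anchor near CTCF, the direction of CTCF loops at that partner was examined. Since CTCF binds in a set orientation, loops from a CTCF site tend to leave to 1 side. For 3259 such loops the wild-type CTCF counts at the partner were unequal on its 2 sides, and in 2264 of them (69.5%, 67.9 to 71.0) the larger count was on the side of the distant anchor. The ZNF143KO CTCF list, which the rule did not use, gave 69.6% (67.7 to 71.3) over 2533 loops. The same measure for RAD21 loops between an anchor near ZNF143 only and an anchor near CTCF gave 62.6% (58.9 to 66.2) in the wild-type list. It gave 66.0% (62.0 to 69.8) in the ZNF143KO list, where the intervals of the 2 kinds of loop overlapped. In 2229 of the 3376 loops (66.0%, 64.4 to 67.6) at least 1 wild-type CTCF loop left the partner towards the distant anchor and ended beyond it. In the ZNF143KO CTCF list the partners of 696 loops had no CTCF loop, and 1561 of the remaining 2680 loops (58.2%, 56.4 to 60.1) met this condition. For loops from anchors near ZNF143 only, the shares were 59.7% (56.1 to 63.3) in the wild-type list and 54.4% (50.4 to 58.4) in the ZNF143KO list, the latter over the 592 loops whose partner had a CTCF loop. In all these shares a partner counts once for each of its loops. RAD21 loops between anchors that are both near CTCF, and the orientation of CTCF motifs, were not examined.

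The position of distant anchors relative to CTCF loops was described first with the wild-type CTCF list, which the rule also used. Of the 3693, 2303 (62.4%, 60.8 to 63.9) were inside at least 1 wild-type CTCF loop, as were 65.7% (62.0 to 69.2) of anchors near ZNF143 only, 72.8% (72.0 to 73.5) of all RAD21 anchors that were not distant and 70.3% of all RAD21 anchors. In the ZNF143KO CTCF list, outside the rule, 51.7% (50.1 to 53.4) of distant anchors lay inside a CTCF loop. There the share was 62.0% (58.2 to 65.6) near ZNF143 only, 63.7% (62.9 to 64.6) for all that were not distant and 60.9% of all RAD21 anchors. Of the loops between 2 distant anchors, 182 of 656 (27.7%, 24.5 to 31.3) were enclosed whole by a wild-type CTCF loop, against 35.5% (28.4 to 43.3) of those to an anchor near ZNF143 only.

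Loops of distant anchors spanned 165.5 kb in the median (158.3 to 173.5, quartiles 76.3 to 331.8). The other 12601 RAD21 loops spanned 158.9 kb (155.0 to 162.7), so the intervals overlapped. The ratio was 1.04 (0.996 to 1.09, with the error of the former median alone). The sign of this difference was not stable: among loops with a count of 3 or more the ratio was 0.961. At a count of 4 to 5 the loops of distant anchors were the shorter ones, at 121.9 kb (106.1 to 143.3) against 153.8 kb (146.2 to 161.8). At counts of 2, 3, 6 to 9 and 10 or more the intervals of the medians overlapped. The longest loops were more frequent at distant anchors, where 144 loops (3.44%, 2.93 to 4.04) spanned 1 to 2 Mb, against 1.75% (1.54 to 2.00) of the other loops. Among partner classes, the median was 186.3 kb (177.3 to 194.9) to anchors near CTCF only and 145.9 kb (136.8 to 158.9) to anchors near both. It was 159.2 kb (143.3 to 173.6) between 2 distant anchors and 124.5 kb (105.0 to 146.0) to anchors near ZNF143 only.

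The next comparison asked whether distant anchors were listed again in cells without ZNF143. An anchor counted as present when an anchor of the other list lay within 5 kb. In the ZNF143KO RAD21 list, 1016 distant anchors were present (27.5%, 26.1 to 29.0), against 57.9% of all RAD21 anchors. In the ZNF143KO CTCF list, 905 were present (24.5%, 23.1 to 25.9), against 62.0% of all. When loops of the other list needed 3 counts, these 2 shares of distant anchors were 9.18% and 6.42%. The shares of all RAD21 anchors at that minimum are not given. In the RAD21 list the difference from RAD21 anchors that were not distant was then -33.0 points (-34.2 to -31.7). Without that minimum, 67.3% (66.4 to 68.1) of the other RAD21 anchors were present in the RAD21 list. Distant anchors were thus lower by 39.7 percentage points (Newcombe interval of the difference, distant minus other, -41.4 to -38.1). In the other classes, presence in the ZNF143KO RAD21 list was 39.8% (36.2 to 43.6) near ZNF143 only, 61.1% (59.9 to 62.2) near CTCF only and 79.7% (78.5 to 80.8) near both. Most of the shared anchors were the same regions, since 767 of the 1016 had identical coordinates in both lists and 949 overlapped. The ZNF143KO lists differ from the wild-type RAD21 list in total and in file layout, and these differences and the genotype cannot be told apart.

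**Figure D3:**
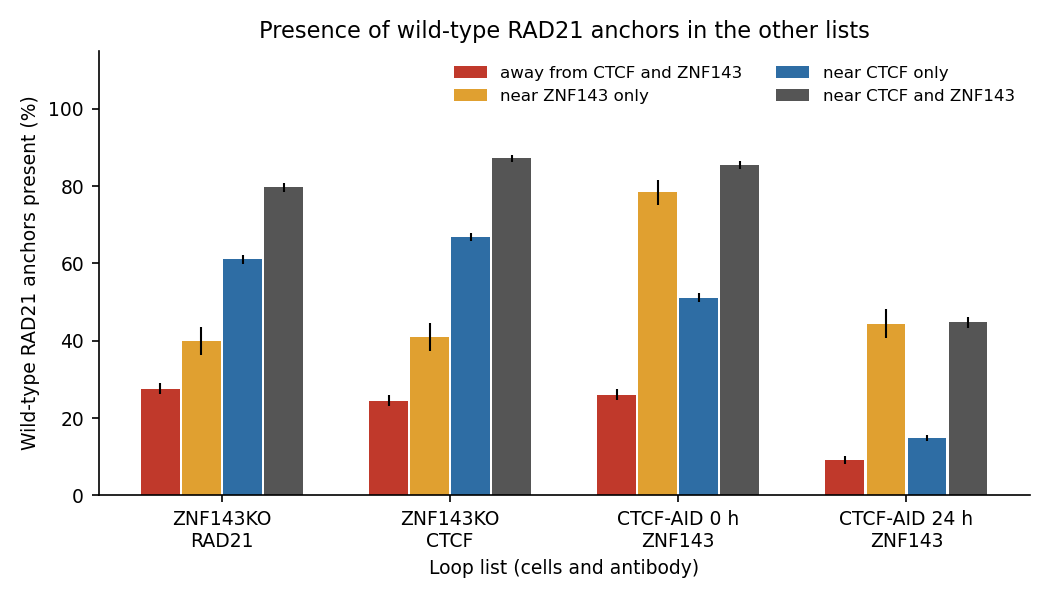
The share of wild-type RAD21 anchors (bars, percent, with 95% Wilson intervals as lines) that lay within 5 kb of an anchor in each of the 4 lists from ZNF143KO and CTCF-AID cells, by class of anchor. Distant anchors have the lowest share in every list, from 9.10% in the list at 24 h of auxin to 27.5% in the ZNF143KO RAD21 list.

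Since weak anchors are listed again less often, presence was compared within classes of summed count. For ZNF143KO RAD21, distant anchors rose from 20.8% (19.1 to 22.5) at a sum of 2 to 56.4% (48.8 to 63.8) at 10 or more. The other RAD21 anchors rose from 44.0% (42.1 to 45.8) to 90.6% (89.6 to 91.5), and over all anchors with sums of 10 or more the share was 89.2%. The difference lay between -25.4 and -23.0 points in the classes up to 9 counts and was -34.1 points (-41.9 to -26.7) at 10 or more. The lower presence of distant anchors was thus found in each of the 5 count classes against the other anchors pooled, most of which lie near CTCF. Against anchors near ZNF143 only, the intervals were apart at sums of 2, where that class had 29.7% (25.1 to 34.6), and of 3, with 46.3% (35.7 to 57.1). They overlapped in the 3 higher classes, where anchors near ZNF143 only had 43.0% (34.3 to 52.2), 57.8% (47.1 to 67.9) and 76.5% (60.0 to 87.6). The highest class is wide, and counts within it were lower at distant anchors. Split further, a choice made after seeing the data, 46 of 92 distant anchors with sums of 10 to 14 were present, against 83.5% (81.5 to 85.3) of the others, at median sums of 11 and 12. With sums of 15 or more these were 64.8% (53.2 to 74.9) and 94.8% (93.8 to 95.6), at median sums of 19 and 25.

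For ZNF143KO CTCF the presence of distant anchors first rose with count. A lower share in the highest class was not resolved, since its interval overlapped those of the other classes. Presence was 22.6% (20.9 to 24.5) at a sum of 2, 25.1% (21.4 to 29.1) at 3, 29.3% (25.9 to 33.0) at 4 to 5, 28.8% (23.9 to 34.1) at 6 to 9 and 21.5% (15.9 to 28.4, 35 of 163 anchors) at 10 or more. Anchors near ZNF143 only were at 38.1% (33.2 to 43.3) at a sum of 2 and 45.0% (34.6 to 55.9) at 3. They were at 43.9% (35.1 to 53.0) at 4 to 5, 44.6% (34.4 to 55.3) at 6 to 9 and 41.2% (26.4 to 57.8) at 10 or more. The intervals of distant anchors lay below these in each class up to 9 counts and overlapped at 10 or more. Over all RAD21 anchors with sums of 10 or more the share was 88.5%, and anchors near CTCF only rose from 51.6% (49.1 to 54.0) to 86.7% (85.0 to 88.3). Between sums of 2 and of 10 or more, the listing of distant anchors thus rose for RAD21, while the intervals for CTCF overlapped. Among distant anchors with sums of 10 or more, 64 (39.3%, 32.1 to 46.9) were in the ZNF143KO RAD21 list and not in the CTCF list, against 7.84% of all RAD21 anchors of that strength. Of those 3969 anchors, 1660 were near CTCF only and 2112 near both in wild-type cells. Distant anchors were chosen to lie away from wild-type CTCF anchors, so these contrasts in CTCF listing are not independent of the rule.

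**Figure D4:**
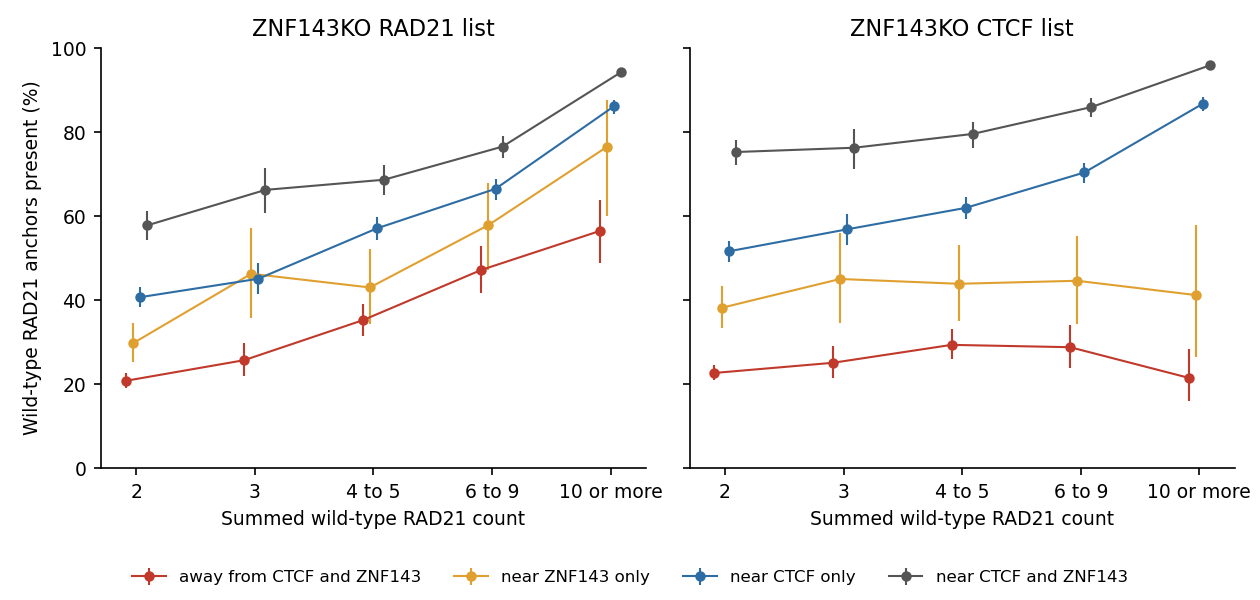
The share of wild-type RAD21 anchors (points, percent, with 95% Wilson intervals) present within 5 kb in the ZNF143KO RAD21 list (left) and CTCF list (right), by class of summed wild-type RAD21 count and class of anchor. For distant anchors the RAD21 share rises from 20.8% to 56.4% with the count, whereas the CTCF share goes from 22.6% to 29.3% at 4 to 5 counts and is 21.5% in the highest class.

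Taken over both ZNF143KO lists, 1559 distant anchors (42.2%, 40.6 to 43.8) were in at least 1 of them. The share of all RAD21 anchors was 74.9%. Of the 1559, 654 were in the RAD21 list alone, 543 in the CTCF list alone and 362 in both, which is 17.7%, 14.7% and 9.80% of distant anchors. Over all RAD21 anchors these shares were 13.0%, 17.0% and 45.0%, so the gap was widest for listing in both. A CTCF loop was therefore listed in ZNF143KO cells at 35.6% (32.7 to 38.6) of the distant anchors present in the RAD21 list and at 20.3% (18.8 to 21.8) of those not present there. At other RAD21 anchors that were present in the ZNF143KO RAD21 list, the CTCF list held 82.9% (82.1 to 83.7). CTCF occupancy of distant anchors in wild-type cells was not measured by these lists. With the ZNF143KO CTCF list also used for exclusion, a choice made after seeing the data, 2788 anchors were left (17.7% of RAD21 anchors), of which 23.5% (21.9 to 25.1) were in the ZNF143KO RAD21 list.

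Presence also depended on distance. In the ZNF143KO CTCF list it was 33.0% (28.9 to 37.5) for distant anchors 5 to 10 kb from an excluded anchor and 19.6% (17.4 to 22.0) for those beyond 100 kb. In the ZNF143KO RAD21 list these shares were 32.8% (28.7 to 37.3) and 22.0% (19.7 to 24.5). Just inside the 5 kb threshold 35.9% were present in the RAD21 list, and just outside it 67.0%. Those latter anchors lie near a CTCF or ZNF143 anchor by construction. Distant anchors with a partner near CTCF were in the ZNF143KO RAD21 list more often (29.4%, 27.7 to 31.2) than those joined to distant anchors alone (21.1%, 18.5 to 23.9). Neither comparison was made within classes of count. Sums of 10 or more were held by 5.91% of distant anchors at 5 to 10 kb and 2.25% beyond 100 kb. A count of 2 was held by 74.8% of loops between 2 distant anchors. It was held by 67.3% of loops from distant anchors to anchors near CTCF only and 62.9% to anchors near both.

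Whole loops were listed again less often than anchors. Of the 4187 loops of distant anchors, 620 (14.8%, 13.8 to 15.9) were found in the ZNF143KO RAD21 list, with both anchors within 5 kb, against 34.1% of all wild-type RAD21 loops. In the ZNF143KO CTCF list 452 were found (10.8%, 9.89 to 11.8), against 36.7% of all. With a minimum of 3 counts in the ZNF143KO RAD21 list, 6.02% were found there. With that minimum in the wild-type RAD21 list instead, 24.1% of the loops of distant anchors were. The shares of all loops under these 2 settings are not given. By partner, the RAD21 share was 10.4% (8.26 to 12.9) between 2 distant anchors, 13.2% (11.9 to 14.8) to anchors near CTCF only, 18.7% (13.4 to 25.6) to anchors near ZNF143 only and 19.1% (17.1 to 21.4) to anchors near both. Among loops with a count of 10 or more, 29 of 60 from distant anchors were found in the RAD21 list (48.3%, 36.2 to 60.7) and 8 of 60 in the CTCF list (13.3%, 6.91 to 24.2). The other loops of that strength were found in 88.2% (86.3 to 89.95) and 85.0% (82.8 to 86.9) of cases. The 29 loops had a median count of 11 in wild-type and 3 in ZNF143KO cells, with a median ratio of ZNF143KO to wild-type count of 0.238 (quartiles 0.182 to 0.364). For the other loops of that strength found again the median ratio was 0.346 (quartiles 0.218 to 0.545). Over all loops found again, whatever their count, the order was the opposite, with a median ratio of 1.0 (quartiles 0.667 to 1.0) for the 620 loops of distant anchors and 0.75 (quartiles 0.444 to 1.16) for the other 5110. A loop listed with 2 counts cannot fall and still be listed. The ratios are of unscaled counts from lists whose totals were 33460 and 74410. The wild-type count is that of a single loop, whereas the ZNF143KO count sums all loops with both anchors within 5 kb. A ZNF143KO loop can therefore match several wild-type loops.

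The ZNF143 lists of CTCF-AID cells were a further readout outside the rule. Without auxin, 958 distant anchors (25.9%, 24.6 to 27.4) lay at a ZNF143 loop anchor, against 56.8% of all RAD21 anchors. After 24 h of auxin 336 did (9.10%, 8.21 to 10.1), against 23.8% of all. When loops of these lists needed 3 counts, the shares of distant anchors were 8.34% and 3.90%. The matching shares of all RAD21 anchors are not given. Most counts in these lists were even, so this minimum may not mean the same as in the other lists. Of the 336, 284 were also present without auxin (84.5%, 80.3 to 88.0), against 95.4% of all RAD21 anchors present at 24 h. The 2 lists held 21128 and 9324 anchors, so fewer anchors of any kind could coincide at 24 h. Without auxin the classes near ZNF143 in wild-type cells reached 78.5% (75.2 to 81.5) near ZNF143 only and 85.5% (84.5 to 86.5) near both. Near CTCF only, where wild-type cells had no ZNF143 anchor either, the share was 51.1% (49.9 to 52.3) without auxin and 14.8% (14.0 to 15.7) at 24 h. With summed RAD21 counts of 10 or more, 47 of 163 distant anchors were present without auxin (28.8%, 22.4 to 36.2), against 76.2% of all RAD21 anchors of that strength. At 24 h 24 were present (14.7%, 10.1 to 21.0), against 34.0% of all. Over the 4 lists from ZNF143KO and CTCF-AID cells together, 1640 distant anchors (44.4%, 42.8 to 46.0) were in none, against 16.5% of all RAD21 anchors, and 46 (1.25%) were in all, against 14.7%.

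The distant anchor with the highest summed count was on chromosome 20 at 52237870 to 52240667 (coordinates of build hg19, named in the submitters' processing notes, counted from 1). Its 7 RAD21 loops summed to 82 counts. They led to 4 anchors near both CTCF and ZNF143, 1 near CTCF only and 2 distant anchors, and spanned 20.5 to 317.2 kb. Here and below, the sum in another list takes all loops with an anchor within 5 kb, and the wild-type sum is of the anchor itself. For ZNF143KO RAD21 the summed count of this anchor was 11, and it was in neither the ZNF143KO CTCF list nor the CTCF-AID lists. One of its distant partners, at 52354728 to 52355851, had 7 loops itself and a summed count of 40. That partner was listed for ZNF143KO RAD21 with 5 counts and in none of the other 3 lists.

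A pair of distant anchors on chromosome 5 carried the strongest loop within the class. The anchor at 55932637 to 55934670 had 7 loops and 71 counts, and the anchor at 56028749 to 56031343 had 8 loops, the most of any distant anchor, and 62 counts. They were joined over 96.4 kb by a loop with a count of 23, which the 4 other lists did not hold. The former anchor lay 178.6 kb from the nearest CTCF loop anchor and was itself missing from all 4. The latter was listed with 4 counts for ZNF143KO RAD21 and with 8 and 3 for ZNF143 in CTCF-AID cells at 0 h and 24 h. Both were also joined to the same anchor near CTCF and ZNF143, at 55564940 to 55567295, with counts of 21 and 13. These anchors and 3 others formed a group of 5 distant anchors over 503.8 kb, linked by 7 loops with 52 counts, none of which was found in the ZNF143KO RAD21 list. Of all loops between 2 distant anchors, 10.4% were found there.

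A similar pair was found on chromosome 3. The anchors at 187121027 to 187123122 (59 counts) and at 187224413 to 187226465 (48 counts) each had 5 loops and were joined by a loop of 10 counts. Both were joined to an anchor near CTCF and ZNF143 on either side of the pair, at 187036034 to 187038298 with counts of 22 and 24 and at 187396075 to 187398314 with counts of 23 and 10. The former was listed with 3 counts for ZNF143KO RAD21, and the latter was missing from all 4 other lists.

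The distant anchor on chromosome 1 at 155681957 to 155684331 had a higher RAD21 count in ZNF143KO than in wild-type cells. Its single loop, to an anchor near ZNF143 only at 155561136 to 155562583, had 45 counts in wild-type RAD21. In ZNF143KO cells the summed count within 5 kb of this anchor was 59 for RAD21 and 41 for CTCF, the highest CTCF count of any distant anchor there. It was thus away from CTCF by the wild-type list and at a strong CTCF loop by the ZNF143KO list. Of the 1016 distant anchors in the ZNF143KO RAD21 list, 229 had a higher sum there than in wild-type cells. Of the 92 with wild-type sums of 10 or more, 3 did.

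The remaining anchors among the 12 with the highest sums had 34 to 39 wild-type counts. On chromosome 7, at 27134796 to 27139087, 39 counts in wild-type compared with 14 for ZNF143KO RAD21, and ZNF143 was listed with 12 and 4 counts in CTCF-AID cells at 0 h and 24 h. On chromosome 1, at 59280343 to 59284233, 36 counts compared with 4, and ZNF143 was listed with 26 and 2 counts. On chromosome 2, at 129152807 to 129154394, 36 counts compared with 11, and ZNF143 was listed at 24 h alone, with 25 counts. On chromosome 12, at 63118240 to 63120757, 36 counts compared with 8. On chromosome 11, at 130523286 to 130525000, there were 34 counts and no listing in any of the 4 lists. Apart from the chromosome 1 anchor at 155681957, none of the 12 was in the ZNF143KO CTCF list, and 9 of the 12 were in the ZNF143KO RAD21 list. With sums of 10 or more, these lists held 88.5% and 89.2% of all RAD21 anchors, and 21.5% and 56.4% of distant anchors. Counts of 89.5% and 86.8% of loops in the CTCF-AID lists were even, against 68.1% in the wild-type RAD21 list. The share was 73.6% in the ZNF143KO RAD21 list and 74.6% in the ZNF143KO CTCF list. The scale of the CTCF-AID counts may differ, so they are given as listed and compared with no other list.

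**Figure D5:**
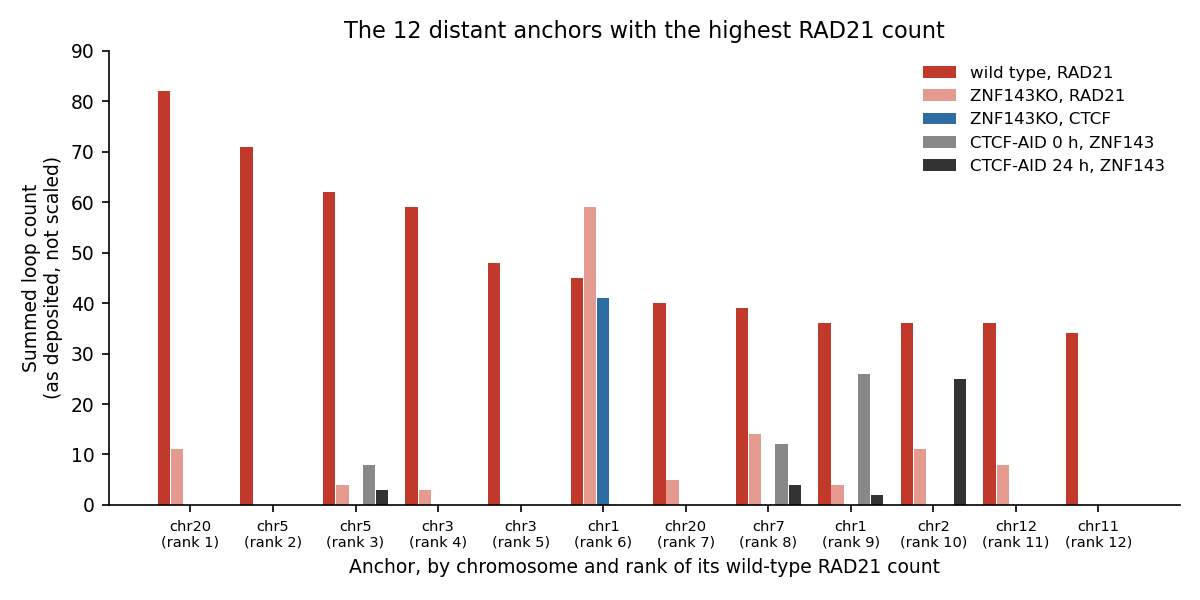
Summed loop counts (bars, as deposited and not scaled between lists) of the 12 distant anchors with the highest wild-type RAD21 count, in the wild-type RAD21 list and the 4 lists from ZNF143KO and CTCF-AID cells. Sums in these 4 lists take all loops with an anchor within 5 kb of the distant anchor. The sixth anchor, on chromosome 1, is the only one of the 12 with a ZNF143KO CTCF count (41).

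Distant anchors without any listing elsewhere included strong ones. Of the 163 with sums of 10 or more, 52 (31.9%, 25.2 to 39.4) were in none of the 4 lists, against 2.02% of all RAD21 anchors with such sums. The 4 with the highest sums were the anchors on chromosomes 5, 3 and 11 given above and an anchor on chromosome 1 at 26184692 to 26186500, whose 5 loops had 26 counts. The latter lay 12.6 kb from a CTCF anchor, and 4 of its partners were near both proteins.

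Besides the chromosome 1 anchor, the distant anchors with the highest ZNF143KO CTCF sums had wild-type RAD21 sums below 10. On chromosome 17, at 43185683 to 43187221, the wild-type RAD21 sum was 6 and the ZNF143KO CTCF sum 18, with no ZNF143KO RAD21 listing. On chromosome 12, at 118841854 to 118843845, these were 4 and 13, with 2 counts for ZNF143KO RAD21. On chromosome 20, at 35490915 to 35492864, they were 9 and 12, with 9 counts for ZNF143KO RAD21.

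Of the 6 strongest loops between 2 distant anchors, none was found in the ZNF143KO RAD21 list or the ZNF143KO CTCF list. Of all loops with a distant anchor, 38.9% (31.6 to 46.7) were found in the RAD21 list at counts of 6 to 9, and 48.3% (36.2 to 60.7) at 10 or more. Of RAD21 loops without a distant anchor, 65.9% (63.5 to 68.3) were found in the RAD21 list at counts of 6 to 9, and 88.2% at 10 or more. After the loops on chromosomes 5 (23 counts) and 3 (10 counts), these 6 loops joined chromosome 1, 161500047 to 161504089, to 161581651 to 161584035 (14 counts) and chromosome 13, 80252660 to 80254302, to 80510139 to 80512255 (10 counts). The last 2 joined chromosome 18, 9334075 to 9335725, to 9365449 to 9367731 and chromosome 14, 62026000 to 62029547, to 62160872 to 62163105, with 8 counts each. The chromosome 1 loop was the only one of the 6 with a count in the CTCF-AID lists, of 2 at 0 h.

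Through loops within the class, 1150 distant anchors (31.1%) were linked to others in 506 groups. Of these groups, 406 were pairs, 70 held 3 anchors and 30 held 4 or more. The largest held 7 anchors on chromosome 13 between 98685135 and 99050297, linked by 7 loops with 19 counts in all. In that group 2 anchors were in the ZNF143KO RAD21 list, 2 were in the ZNF143KO CTCF list, and none of the loops was found in the ZNF143KO RAD21 list. Over all distant anchors, 27.5% were in the RAD21 list and 24.5% in the CTCF list. Of all loops between 2 distant anchors, 10.4% were found in the RAD21 list.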

How the data were processed

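The authors deposited 1 loop list per library, and its last column holds a whole-number count per loop whose exact definition the sources used here do not give. The submitters' processing notes name HiC-Pro and build hg19. The loop caller, filters and any pooling are not given in the sources used here. Positions on chromosome 1 reached 249202650. Anchors were merged where they shared at least 1 bp, which changed none. Distances are gaps between anchor edges. The count of an anchor or loop in another list is the sum over all loops there that match within 5 kb. A span is the distance between anchor midpoints. Shares carry 95% Wilson intervals, differences Newcombe intervals, and medians intervals from the binomial order statistics. Python 3.11.15 with numpy 2.4.6, scipy 1.17.1 and matplotlib 3.10.9 was used, and the code was tested on simulated data. Named anchors were the 12 with the highest wild-type RAD21 sum, the 4 highest in none of the 4 other lists, the 4 with the highest ZNF143KO CTCF sum and the 4 with the most loops. The 6 strongest loops between distant anchors were named as well. The anchors and these rules were chosen with earlier results of these data known. No sequence or annotation of build hg19 was used, so genes, motifs and bases at the anchors were not analysed here.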

Additional observations from a re-analysis of the deposited data

How the results depend on the processing

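Of 76 combinations of a result and an alternative, 25 fell inside the 95% interval given in the text, 49 fell outside and 2 changed direction. Both were the span ratio, 0.994 when distant meant no overlap and 0.961 at a RAD21 count of at least 3. The difference in ZNF143KO RAD21 presence kept its sign under each alternative run. The cause was not tested for any of them. Values below are percentages in the order class share, ZNF143KO RAD21 presence, ZNF143KO CTCF presence, loops found, CTCF-AID 0 h and 24 h presence. No overlap gave 26.4, 31.4, 29.7, 17.8, 30.7 and 11.97, with a presence difference of -36.1 points. A RAD21 minimum of 3 gave 13.1, 37.4, 26.9, 24.1 and, at 24 h, 10.4, with 11.97% of loops within the class. No sum of 2 exists there. A minimum of 3 in the excluding lists gave 41.3, 34.3, 35.5, 17.6, 36.3 and 12.1, with 51.9% at a sum of 2, a span ratio of 1.15 and 28.0% of loops within the class. Spans of 40 kb to 1 Mb gave a class share of 22.4 and 59.4% at a sum of 2. For the 5 shares after the first, presence by overlap gave 25.7, 22.7, 13.1, 22.3 and 7.04 (difference -37.5), presence within 10 kb 32.4, 30.6, 18.9, 33.2 and 13.3 (difference -37.9), and a minimum of 3 in the other list 9.18, 6.42, 6.02, 8.34 and 3.90 (difference -33.0). Excluding by the ZNF143KO CTCF list too, chosen after seeing the data, gave 17.7% class share, 13.4% of loops within the class, 23.5% presence (difference -41.9), 12.4% of loops found and 23.9% at 0 h. ZNF143KO CTCF presence has no value under that rule. With a limit of 10 kb the class share was 20.6%, and the other 9 results were inside their intervals. Most distant anchors rest on 2 counts, so a missing listing says little for any single anchor. No paired analysis was possible because each group had 1 library.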

Other observations

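The same kind of anchor was counted in ZNF143KO cells from their own lists. No ZNF143 list of those cells was used, so anchors more than 5 kb from CTCF anchors alone were taken in both genotypes. In wild-type cells 4358 of 15742 RAD21 anchors were away from CTCF (27.7%, 95% Wilson interval 27.0 to 28.4), and in ZNF143KO cells 4334 of 12620 were (34.3%, 33.5 to 35.2). With loops of at least 3 counts in the RAD21 lists the shares were 15.8% (15.1 to 16.6) and 20.0% (19.0 to 21.0). Of the wild-type set, 29.4% (28.1 to 30.8) lay at any ZNF143KO RAD21 anchor, against 57.9% of all wild-type RAD21 anchors. Of the ZNF143KO set, 46.5% (45.1 to 48.0) lay at any wild-type RAD21 anchor, against 71.1% of all ZNF143KO RAD21 anchors. A match that also required being away from CTCF in both lists was rarer by construction: 18.0% (16.9 to 19.2) of the wild-type set lay at an anchor of the ZNF143KO set, and 18.0% (16.8 to 19.1) of the ZNF143KO set at an anchor of the wild-type set. Of the ZNF143KO set, 1766 (40.7%, 39.3 to 42.2) lay at a wild-type CTCF loop anchor, against 71.0% of all ZNF143KO RAD21 anchors. The CTCF list of ZNF143KO cells held 15905 anchors against 16948 in wild-type cells, and the part of this difference in the shares was not tested.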
